A study of Arabidopsis thaliana with 45 samples.

Results

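Dry, unimbibed seeds of an Arabidopsis thaliana mutant labelled cyp79B2 cyp79B3 (cyp) were compared with dry seeds of the wild type (WT), both of ecotype Col0. All libraries that the labels place in these 2 groups were used, 3 of cyp (replicates 7, 8 and 9) and 3 of WT (replicates 5, 8 and 9), of 45 libraries in all. RNA was taken from entire seeds, so embryo, endosperm and seed coat were counted together, and a lower transcript level in one cell type cannot be told apart from fewer such cells. The difference between cyp and WT was also read in seeds kept for 6 h in water, with 3 libraries of each genotype. Dry seeds labelled myb (myb28 myb29, 2 libraries) and qko (all 4 genes, 3 libraries) are given beside some genes. The labels do not say whether the libraries of a group came from separate plants or seed lots. Every p thus measures a spread between libraries that may be technical. For the tests of single loci that spread was estimated from all 45 libraries, those of imbibed seeds included, and not from the dry libraries alone. Of 27587 loci in the table, 18066 had enough counts to be tested.

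CYP79B2 and CYP79B3 are cytochromes P450 that turn tryptophan into indole-3-acetaldoxime, from which indolic glucosinolates and camalexin are made. Dry seeds hold a store of messenger RNA laid down during maturation. Much of it encodes storage proteins, oil body proteins and protective proteins such as LEA proteins and small heat shock proteins. Dormancy, the block to germination of a fresh seed, is set during maturation by DOG1 and by abscisic acid (ABA), while gibberellin promotes germination.

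The 6 libraries held between 22034638 and 22518989 counts. Levels are given in CPM, counts scaled to library size by trimmed means, with the SD over 3 libraries. Libraries of one group lay closer to each other (correlation of log2 CPM 0.9891 to 0.9924) than to those of the other group (0.9766 to 0.9804). The scaling factors were 0.630 ± 0.00798 in WT and 0.820 ± 0.0161 in cyp. Defining seed transcripts were abundant in both groups, and markers of pollen and green leaf were low. Seed coat and endosperm are parts of the seed, and their markers were low too, except for EPR1 of the endosperm. The summed level of 7 pollen markers was 18.8 to 36.2 CPM in WT and 27.1 to 51.0 CPM in cyp, and that of the seed coat markers was 9.87 to 11.8 and 11.0 to 11.6 CPM, with TT16 at 0 counts. The green leaf markers summed to 42.3 to 56.5 CPM in WT and 60.6 to 67.8 CPM in cyp. The endosperm markers without EPR1 summed to 7.87 to 9.31 CPM in WT and 15.1 to 16.3 CPM in cyp, with IKU2 and FIS2 at 0 counts in both. EPR1, an extensin-like gene of the endosperm, spread widely in cyp, at 6940, 10870 and 19630 CPM, and stood at 16210, 16090 and 18410 CPM in WT. The mitochondrial genome took 0.0541 to 0.0610% of the counts in WT and 0.112 to 0.141% in cyp. The part of these differences in the results below was not tested.

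The genes named in the label were read first. CYP79B2 (AT4G39950) had 3, 1 and 1 counts in the WT libraries and 31, 21 and 28 in those labelled cyp. CYP79B3 (AT2G22330) had 2, 1 and 0 counts in WT and 10, 16 and 24 in cyp. Both were thus higher in the libraries labelled cyp, which goes against a reading of the label as loss of transcript. At 3 counts or fewer per WT library a loss could not have been detected. The count of a locus does not show which part of the gene was read. MYB28 and MYB29 had 0 counts in all 6 libraries. All directions given for cyp are those of these labelled libraries.

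Dry cyp seeds differed from dry WT seeds at 29.4% of the tested loci. Among the lower ones were 9 of 13 storage protein and 5 of 10 oil body protein genes, 4 genes annotated as DOG1 or delay of germination proteins, the myrosinase gene TGG1, and 5 of 9 DNA methylation genes. Among the higher ones were 9 of 18 small heat shock protein and chaperone genes, 6 of 15 nitrate genes (2 were lower) and the nitrilase gene NIT4. So were 6 of 9 genes of the jasmonate and defence list, all of them jasmonate genes. In total 5319 loci passed an adjusted p of 0.05 (edgeR quasi-likelihood F test, Benjamini-Hochberg over all tested loci, used for every adjusted p here). Of these 2904 were higher in cyp (16.1% of tested loci) and 2415 lower (13.4%). The counts per gene list below are to be read against these shares. The lists were chosen with earlier results of these data known, so a count above its share is a description and no test. Most differences were small, with a median absolute log2 fold change of 0.60 among called loci. More than 2-fold changes numbered 925 upwards and 352 downwards, and more than 4-fold changes 196 and 103. The libraries of the groups did not overlap at 53% of all tested loci, among them 2831 of the called rises and 2380 of the called falls.

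The split between rises and falls depends on how libraries are scaled. When libraries were scaled to their total count, 9211 loci passed, 8650 higher and 561 lower, and the share of called loci that were higher went from 54.6% to 93.9%. The median log2 fold change over all loci was then 0.41, against 0.03 with trimmed means and 0.00 with DESeq2 size factors. With DESeq2 size factors 2542 loci were higher and 2919 lower. All values below are therefore relative to the trimmed-mean scaling, and a fall smaller than the shift between scalings (a median of 0.03 against 0.41) turns into a rise with total counts.

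**Figure D1:**
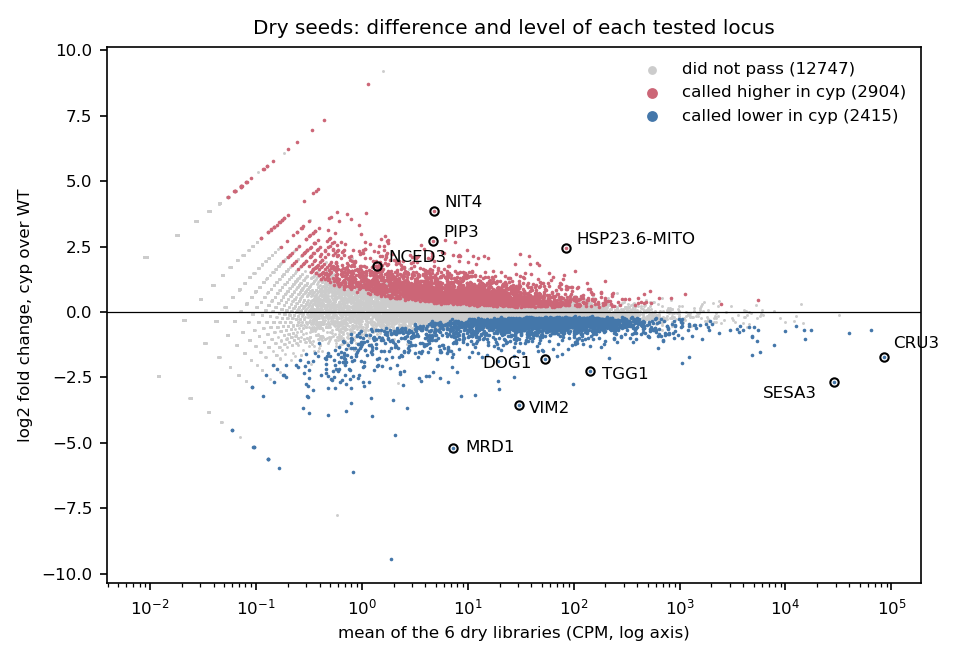
Log2 fold change of cyp over WT in dry seeds (vertical) against the mean of the 6 dry libraries in CPM (horizontal, log axis) for 18066 loci, with 2904 called higher in red and 2415 called lower in blue. CRU3 and SESA3 stand out as abundant transcripts that were lower, and NIT4 and HSP23.6-MITO lie among the rises; rows of points at low CPM are loci with few or 0 counts in a group.

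Seed storage proteins feed the seedling after germination. Together with oil body protein genes they took 26.0, 24.2 and 26.3% of all counts in the WT libraries and 15.4, 16.1 and 15.3% in the cyp libraries. The means were 25.5 ± 1.12% and 15.6 ± 0.438% (n = 3 each). The groups did not overlap, and the exact two-sided permutation test gave p = 0.10, the smallest that 3 against 3 allows. Of 13 storage protein genes, 9 fell, 0 rose and 4 did not pass, with a median log2 fold change of -0.73. With total-count scaling 5 fell and 1 rose (median -0.35).

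The largest fall of the list was in SESA3 (AT4G27160), which encodes a 2S albumin. Its level was 45480, 47290 and 54980 CPM in WT and 7532, 8336 and 7553 CPM in cyp (log2 fold change -2.66, SE 0.27, adjusted p = 2.0e-09). All cyp libraries thus lay far below all WT libraries. SESA2 (AT4G27150) fell from 1685 ± 145 to 442 ± 47.6 CPM (log2 fold change -1.93). The SESA genes are close copies that may share reads, which was not tested. The most abundant storage transcript in WT, CRU3 (AT4G28520, a 12S cruciferin), was at 138700, 121300 and 134000 CPM in WT and at 38980, 41060 and 40480 CPM in cyp (log2 fold change -1.71, SE 0.18, adjusted p = 6.1e-09). The other cruciferins fell less, CRU2 by 0.73 and CRA1 by 0.70 on the log2 scale. The list did not move as one. PAP85 (AT3G22640), a vicilin-like cupin protein, stood at 32770 ± 2140 CPM in WT and 30570 ± 2714 in cyp, with overlapping libraries (log2 fold change -0.10, SE 0.20, adjusted p = 0.76). With total-count scaling its sign changed (0.28).

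Of 10 oil body protein genes, 5 fell, 0 rose and 5 did not pass (median -0.70). With total-count scaling 3 fell and 1 rose (median -0.32). Fits of the 6 libraries alone called 9 lower and 1 higher, and 8 lower with a replicate block. ATS1 (AT4G26740), a caleosin with peroxygenase activity, was at 1857, 1942 and 1869 CPM in WT and at 551, 597 and 585 CPM in cyp (log2 fold change -1.71, SE 0.18, adjusted p = 4.0e-09). OLEO4 (AT3G27660), an oleosin that coats the oil droplet, fell from 11000 ± 153 to 4600 ± 126 CPM (log2 fold change -1.26, SE 0.23, adjusted p = 7.4e-05). OLEO3 showed no such fall, at 72.5 CPM in WT and 87.3 CPM in cyp (adjusted p = 0.34). In the edgeR fit of the 6 libraries alone it passed as higher (log2 fold change 0.27, adjusted p = 0.0045).

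**Figure D2:**
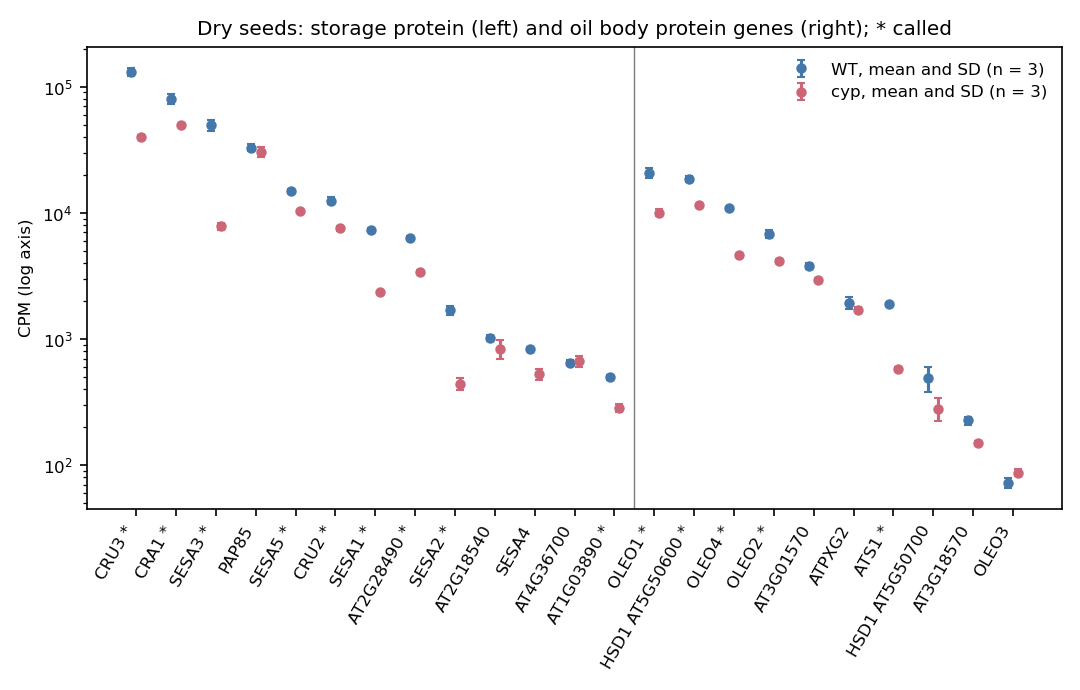
Level in CPM (log axis) of the 13 storage protein genes (left) and the 10 oil body protein genes (right) in dry seeds, as mean and SD over 3 libraries of WT (blue) and cyp (red), with an asterisk at genes that passed. SESA3, SESA2, CRU3, SESA1 and ATS1 show the widest gaps, while PAP85 and OLEO3 lie together or in the other order.

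Promoters of maturation genes often carry the RY element, the letters CATGCA, which transcription factors of seed maturation bind, and the G-box, the letters CACGTG. The 250 bases before the annotated start are shown for a storage gene with a large fall, the most abundant one in WT, one that did not pass and an oleosin gene. They come from RefSeq on assembly TAIR10.1. The build behind the deposited counts is not given in the sources used here, so genes were matched by locus name alone. Capitals mark RY elements, G-boxes and heat shock elements (the letters GAANNTTC) on either strand, and neighbouring matches may overlap. SESA3 lies at chr4:13611546-13611795, plus strand, CRU3 at chr4:14087306-14087555, plus strand, PAP85 at chr3:8013942-8014191, minus strand and OLEO4 at chr3:10242994-10243243, plus strand.

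SESA3: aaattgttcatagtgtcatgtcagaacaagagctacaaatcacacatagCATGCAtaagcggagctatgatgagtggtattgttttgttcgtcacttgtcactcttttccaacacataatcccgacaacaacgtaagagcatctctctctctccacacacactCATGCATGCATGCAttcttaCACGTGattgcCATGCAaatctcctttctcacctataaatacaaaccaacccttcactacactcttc

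CRU3: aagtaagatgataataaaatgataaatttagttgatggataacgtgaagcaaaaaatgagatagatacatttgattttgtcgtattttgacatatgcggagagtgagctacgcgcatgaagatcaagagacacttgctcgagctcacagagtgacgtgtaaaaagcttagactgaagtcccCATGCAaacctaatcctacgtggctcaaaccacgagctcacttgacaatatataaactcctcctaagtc

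PAP85: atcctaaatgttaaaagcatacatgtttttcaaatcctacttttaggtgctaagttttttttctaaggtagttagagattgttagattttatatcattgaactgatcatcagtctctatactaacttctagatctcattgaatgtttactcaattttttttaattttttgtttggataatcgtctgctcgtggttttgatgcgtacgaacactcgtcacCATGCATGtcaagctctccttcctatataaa

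OLEO4: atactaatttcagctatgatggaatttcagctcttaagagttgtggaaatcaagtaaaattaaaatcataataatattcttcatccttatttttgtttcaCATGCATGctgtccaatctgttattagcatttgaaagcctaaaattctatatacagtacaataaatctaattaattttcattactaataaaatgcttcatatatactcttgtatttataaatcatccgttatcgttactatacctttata

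SESA3 held 7 RY matches, counted on both strands with overlap, and 1 G-box. CRU3 held 1 RY match and PAP85 held 2, so the gene that did not pass carries the letters too. An RY match was found in 11 of 13 storage promoters, 10 of 10 oil body promoters and 4 of 24 LEA promoters. Among 17960 promoters of tested loci, 7.28% held it, with 7.76% of those called lower and 6.72% of those called higher. The G-box was found in 8 of 13 storage promoters and 7.81% of all, with 8.22% of those called lower and 9.22% of those called higher. Over all called loci the RY element thus stood close to its share among tested loci. The G-box stood somewhat above its own share, more so among the rises, which was not tested. A match describes the letters only.

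LEA proteins protect dry cells. Of 24 tested genes 3 fell, 1 rose and 20 did not pass (median -0.13), so the share that changed lay under the 29.4% of all loci. With total-count scaling the list turned, with 7 higher and 2 lower (median 0.25). M17 (AT2G41260) was at 7396, 10320 and 8175 CPM in WT and at 2773, 2883 and 3274 CPM in cyp (log2 fold change -1.54, SE 0.18, adjusted p = 5.5e-08). The dehydrin gene RAB18 (AT5G66400) fell from 50960 ± 4001 to 28850 ± 2764 CPM (log2 fold change -0.82, adjusted p = 0.0067), a call lost with total-count scaling (adjusted p = 0.084). ECP63 (AT2G36640) rose from 852 ± 202 to 1377 ± 97.4 CPM (log2 fold change 0.69, adjusted p = 0.0037).

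Of 13 dormancy genes 7 fell, 2 rose and 4 did not pass (median -0.44). With total-count scaling 3 fell and 5 rose (median -0.06), so the balance of the list rests on the scaling, while its largest falls do not. DOG1 (AT5G45830), which sets the depth of dormancy, was at 78.0, 91.5 and 81.2 CPM in WT and at 23.3, 23.2 and 25.2 CPM in cyp (log2 fold change -1.81, SE 0.16). AT4G18690, annotated as a delay of germination protein, differed more. Its level was 39.2, 30.7 and 35.6 CPM in WT and 4.93, 3.99 and 4.86 CPM in cyp (log2 fold change -2.93, SE 0.21, adjusted p = 1.9e-12). Its neighbours of the same annotation fell less, AT4G18660 from 46.3 to 25.9 CPM (log2 fold change -0.84) and AT4G18680 from 140.3 to 91.9 CPM (log2 fold change -0.61). AT4G18650, close to them by name and on the same list, did not pass. It stood at 74.2 CPM in WT and 65.5 CPM in cyp (log2 fold change -0.18, adjusted p = 0.47). AT4G18680 no longer passed when libraries were scaled to total counts (adjusted p = 0.22), nor did the peroxiredoxin gene PER1 (log2 fold change -0.69, then adjusted p = 0.21). Both genes that rose were SPT, a transcription factor of germination, and PP2CA, a phosphatase that represses ABA signalling (log2 fold changes 0.83 and 0.33). Without cyp replicate 8 PP2CA no longer passed (adjusted p = 0.054).

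ABA genes moved in both directions. Of 22 tested 5 rose, 6 fell and 11 did not pass (median -0.15), and with total-count scaling 10 rose and 0 fell. NCED enzymes carry out the rate-limiting step of ABA synthesis. NCED9 (AT1G78390) was at 5.15, 4.62 and 4.95 CPM in WT and at 10.9, 10.8 and 11.1 CPM in cyp (log2 fold change 1.15, SE 0.12, adjusted p = 2.3e-09). NCED3 (AT3G14440) rose from 0.648 ± 0.199 to 2.17 ± 0.0949 CPM (log2 fold change 1.74, adjusted p = 0.002). CYP707A1, which breaks ABA down, rose as well (log2 fold change 0.96, adjusted p = 0.01). ABI4 (AT2G40220), a transcription factor of ABA signalling and the largest rise among 15 maturation factors tested, was at 3.005, 2.35 and 3.35 CPM in WT and at 7.79, 7.43 and 9.67 CPM in cyp (log2 fold change 1.52, SE 0.17, adjusted p = 1.3e-08). Of those factors 2 rose and 1 fell, and with total-count scaling 8 rose and 0 fell. ABI1 (AT4G26080), a phosphatase that represses ABA signalling, fell from 33.7 ± 3.85 to 20.8 ± 1.09 CPM (adjusted p = 0.0017), a call lost with total-count scaling (adjusted p = 0.091).

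Of 22 gibberellin genes 5 rose, 2 fell and 15 did not pass (median 0.30), and with total-count scaling 12 rose and 1 fell. Some that did not pass lay near the floor, and the median includes them. Examples are GA3OX1 (0.0237 CPM in WT and 0.0548 in cyp) and GA3OX2 (0 CPM in WT and 0.0733 in cyp). The rises were 22.7% and the falls 9.09% of the list, not far from the 16.1% and 13.4% of all tested loci. RGL2 (AT3G03450), a DELLA protein that represses germination, was at 11.7, 8.24 and 10.3 CPM in WT and at 26.5, 25.9 and 25.4 CPM in cyp (log2 fold change 1.36, SE 0.12, adjusted p = 8.6e-11). GA20OX3, of gibberellin synthesis, rose from 5.86 ± 0.401 to 11.1 ± 0.442 CPM (log2 fold change 0.92). GA2OX6, which inactivates gibberellin, fell from 4.12 ± 0.592 to 1.71 ± 0.234 CPM (log2 fold change -1.26, adjusted p = 0.0014).

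Of 18 small heat shock protein and chaperone genes 9 rose, 0 fell and 9 did not pass (median 0.66), and with total-count scaling 14 rose and 0 fell. Fits of the 6 libraries alone called 15 higher and 1 lower, and 14 higher with a replicate block. Small heat shock proteins bind unfolding proteins. HSP23.6-MITO (AT4G25200), the mitochondrial one, was at 23.46, 25.4 and 30.7 CPM in WT and at 143.0, 136.5 and 148.8 CPM in cyp (log2 fold change 2.43, SE 0.29, adjusted p = 5.3e-08). AT5G51440, an HSP20-like chaperone, rose from 2.08 ± 0.314 to 9.95 ± 1.14 CPM (log2 fold change 2.25). HSP21 (AT4G27670), of the plastid, rose from 0.383 ± 0.109 to 2.67 ± 0.694 CPM (log2 fold change 2.79, SE 0.61, adjusted p = 6.6e-04). The abundant members did not pass in the fit of all 45 libraries. HSP101 (AT1G74310), a disaggregase, stood at 967.0 to 992.4 CPM in WT and at 977.1 to 1060 CPM in cyp (adjusted p = 0.93). The seed heat shock factor HSFA9 stood at 476 and 408 CPM (log2 fold change -0.22, adjusted p = 0.59), and its sign changed with total-count scaling (0.15). In the edgeR fit of the 6 libraries alone HSFA9 passed as lower (log2 fold change -0.23, adjusted p = 0.0025). Outside the list, the co-chaperone gene BAG6 (AT2G46240) rose from 16.96 ± 0.936 to 60.4 ± 0.830 CPM (log2 fold change 1.83, SE 0.24, adjusted p = 3.7e-07).

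**Figure D3:**
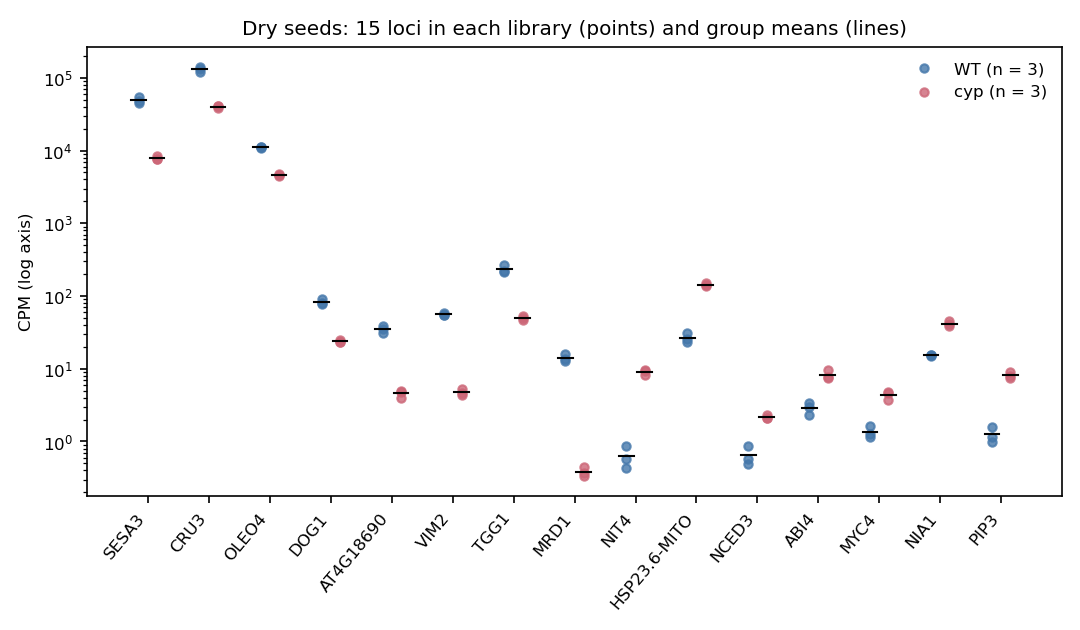
Level in CPM (log axis) of 15 loci in each dry library of WT (blue, n = 3) and cyp (red, n = 3), with lines at the group means. At none of the loci shown do the points of the groups overlap, as at 53% of all tested loci. Some of them, such as NIT4 and MRD1, were taken by a rule that asks for no overlap. SESA3, CRU3, OLEO4, DOG1, AT4G18690, VIM2, TGG1 and MRD1 are lower in cyp, and the other 7 are higher.

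Glucosinolate genes went both ways. Of 19 tested genes of indolic glucosinolate and camalexin synthesis 5 rose, 2 fell and 12 did not pass, and with total-count scaling 9 rose and 0 fell. The rises were 26.3% and the falls 10.5% of the list, against 16.1% and 13.4% of all tested loci. Most of these genes lay under 1 CPM in WT, so the list median of 1.08 rests largely on low counts. CYP79B2 and CYP79B3 themselves are among the rises. So are UGT74B1 (log2 fold change 0.50) and CYP71A13 (log2 fold change 2.93), the latter near the floor at 0.04813 CPM in WT and 0.3995 CPM in cyp. SOT16 (AT1G74100), a sulfotransferase of the last core step, rose from 4.59 ± 0.194 to 8.40 ± 0.874 CPM (log2 fold change 0.87, adjusted p = 1.0e-05). Of 12 genes of glucosinolate breakdown 4 fell and 2 rose (median -0.45), and with total-count scaling 1 fell and 2 rose. TGG1 (AT5G26000), a myrosinase, was at 265.5, 216.3 and 222.3 CPM in WT and at 49.2, 52.6 and 46.7 CPM in cyp (log2 fold change -2.25, SE 0.25). The locus next to it by name, AT5G26010 (a phosphatase 2C family protein), also fell, from 18.8 ± 2.16 to 6.31 ± 0.949 CPM (log2 fold change -1.57, adjusted p = 5.4e-06). TGG2, a gene related to TGG1, was at 0 CPM in WT and cyp. PBP1 (AT3G16420), a lectin that binds the beta-glucosidase PYK10, rose from 1.70 ± 0.242 to 7.53 ± 0.815 CPM (log2 fold change 2.14, SE 0.27, adjusted p = 2.3e-07).

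Cyanide is fixed by beta-cyanoalanine synthase, and its product is cleared by the nitrilase NIT4. Of 9 tested genes of cyanide and thiocyanate metabolism 4 rose and 2 fell (median 0.55), with 6 and 1 under total-count scaling. NIT4 (AT5G22300) showed the largest rise among called genes with at least 5 CPM in the higher group, 3 counts in every library and no overlap. Its level was 0.572, 0.426 and 0.874 CPM in WT and 9.49, 8.15 and 9.34 CPM in cyp (log2 fold change 3.84, SE 0.33, adjusted p = 1.0e-10). CYSC1 (AT3G61440), the mitochondrial beta-cyanoalanine synthase, rose from 4.57 ± 0.123 to 10.8 ± 0.259 CPM (log2 fold change 1.24, adjusted p = 0.0032). OASA1 (AT4G14880), a cytosolic enzyme of cysteine synthesis, fell from 313.5 ± 24.6 to 179.3 ± 3.63 CPM (log2 fold change -0.81, adjusted p = 2.8e-08).

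Nitrate is reduced to nitrite by nitrate reductase and then to ammonium, which glutamine synthetase takes up. Of 15 tested genes 6 rose, 2 fell and 7 did not pass (median 0.39), with 7 and 2 under total-count scaling. Fits of the 6 libraries alone, with 14 genes tested, called 7 higher and 6 lower, and 7 and 4 with a replicate block, and without WT replicate 5 the median was 0.12. The nitrate reductase gene NIA1 (AT1G77760) was at 14.9, 15.3 and 15.5 CPM in WT and at 38.9, 45.1 and 41.6 CPM in cyp (log2 fold change 1.46, SE 0.33, adjusted p = 9.9e-04). The other nitrate reductase gene, NIA2, lay lower in cyp but did not pass (log2 fold change -0.65, adjusted p = 0.16). The nitrite reductase gene NIR1 did not pass either (log2 fold change 0.73, adjusted p = 0.062). UPM1 (AT5G40850), an enzyme of sirohaem synthesis, the cofactor of nitrite reductase, rose from 85.3 ± 7.63 to 183.7 ± 6.06 CPM (log2 fold change 1.11, SE 0.09, adjusted p = 6.6e-11). The plastid glutamine synthetase gene GS2 (AT5G35630) rose from 1.15 ± 0.361 to 3.56 ± 0.230 CPM (log2 fold change 1.63). RFNR2 (AT1G30510), a ferredoxin reductase of non-green plastids outside the list, rose from 4.84 ± 0.357 to 20.1 ± 0.533 CPM (log2 fold change 2.05, SE 0.38, adjusted p = 8.5e-05). NRT2.7, which loads nitrate into seed vacuoles, fell from 823 to 462 CPM, and glutamate dehydrogenase gene GDH2 fell from 55.7 to 25.9 CPM.

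Of 9 tested jasmonate and defence genes 6 rose, 0 fell and 3 did not pass (median 0.79), and 7 rose with total-count scaling. The rises covered synthesis (AOS and OPR3), the transcription factors MYC2, MYC3 and MYC4, and the repressor JAZ1. JAZ10 did not pass, at 12.38 CPM in WT and 12.34 CPM in cyp (adjusted p = 0.99). LOX2 (0 CPM in both groups) and the defence gene PR1 (0.024 CPM in WT and 0.019 CPM in cyp) did not pass either. The call of MYC3 (log2 fold change 0.33) was lost in 5 of the 6 fits that leave out a library, with cyp replicate 7 as the exception, and with DESeq2 (adjusted p = 0.072). OPR3 (AT2G06050) was at 3.94, 2.77 and 2.55 CPM in WT and at 8.32, 7.76 and 7.55 CPM in cyp (log2 fold change 1.35, SE 0.19, adjusted p = 8.6e-07). JAZ1 (AT1G19180) rose from 1.84 ± 0.306 to 4.95 ± 0.285 CPM (log2 fold change 1.42), and MYC4 (AT4G17880) from 1.36 ± 0.251 to 4.42 ± 0.573 CPM (log2 fold change 1.69). The defence genes PR5, BGL2, VSP1, VSP2 and PDF1.2 had too few counts to be tested.

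MET1 copies CG methylation after DNA replication, VIM proteins bring it to hemimethylated sites, and the DNA glycosylases DML1 and DME remove methylated cytosines. Of 9 genes 5 fell, 1 rose and 3 did not pass (median -1.21), and with total-count scaling 5 fell and 3 rose (median -0.84). VIM2 (AT1G66050) was at 58.9, 54.3 and 54.0 CPM in WT and at 4.35, 4.66 and 5.26 CPM in cyp (log2 fold change -3.55, SE 0.18, adjusted p = 2.2e-16). VIM genes are close copies that may share reads, which was not tested. VIM3 (AT5G39550) fell from 9.54 ± 0.758 to 3.55 ± 0.626 CPM (log2 fold change -1.43), and MET1 (AT5G49160) from 8.37 ± 0.876 to 3.45 ± 0.202 CPM (log2 fold change -1.28). DML1 (AT2G36490) was at 280.0, 254.1 and 239.3 CPM in WT and at 96.1, 106.6 and 101.2 CPM in cyp (log2 fold change -1.35, SE 0.12, adjusted p = 1.4e-10). DME went the other way, from 7.68 to 14.5 CPM (log2 fold change 0.92, adjusted p = 0.0033).

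**Figure D4:**
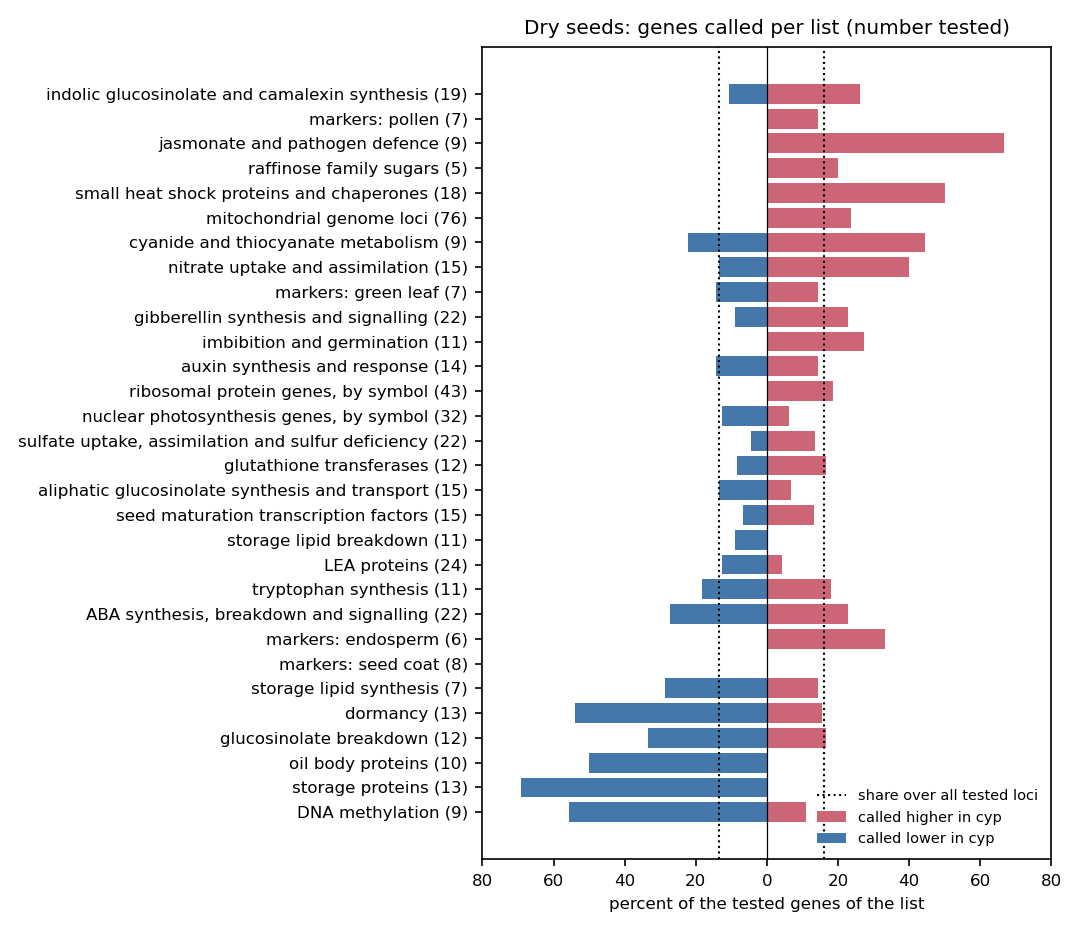
Percent of the tested genes of each list (number tested in brackets) that were called higher (red, to the right) or lower (blue, to the left) in dry cyp seeds, with dotted lines at the shares over all tested loci (16.1% and 13.4%). Lists are ordered by median log2 fold change; storage protein, dormancy, oil body and DNA methylation genes reach furthest to the left and jasmonate, chaperone, cyanide and nitrate genes furthest to the right.

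Other large differences lay outside the lists. MRD1 (AT1G53480, mto 1 responding down 1) had the largest fall among called genes that met the same limits. Its level was 12.9, 13.5 and 15.9 CPM in WT and 0.371, 0.443 and 0.335 CPM in cyp (log2 fold change -5.18, SE 0.33, adjusted p = 9.0e-14). The 250 bases before its start overlap the annotated neighbour HEI10 (AT1G53490), a RING protein of meiotic crossovers. HEI10 fell from 22.9 ± 2.41 to 7.34 ± 0.208 CPM (log2 fold change -1.64, SE 0.12, adjusted p = 1.5e-12). Whether the counting used strand is not given in the sources used here, so reads of overlapping neighbours may not be told apart. NRAMP6 (AT1G15960), a metal transporter, fell from 21.0 ± 1.80 to 2.37 ± 0.714 CPM (log2 fold change -3.15). AT2G43590, a chitinase family protein, was at 167.3, 160.1 and 188.2 CPM in WT and at 21.0, 24.8 and 29.9 CPM in cyp (log2 fold change -2.77, SE 0.22, adjusted p = 1.8e-11).

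AT5G60930 and AT2G36200, both annotated as P-loop nucleoside triphosphate hydrolases, fell by 3.196 and 2.67 on the log2 scale. Kinesins of the phragmoplast, the structure that builds the new wall of a dividing cell, were looked up after these values were seen. POK1 (AT3G17360) fell from 5.24 ± 0.434 to 1.59 ± 0.256 CPM, PAKRP1 (AT4G14150) from 8.35 ± 0.615 to 2.92 ± 0.223 CPM and KINESIN-12B (AT3G23670) from 11.99 ± 0.685 to 5.90 ± 0.279 CPM (log2 fold changes -1.72, -1.51 and -1.02). Being chosen for their values, they say nothing of the group.

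Rises outside the lists included PIP3 (AT4G35100), an aquaporin, at 1.15, 0.995 and 1.60 CPM in WT and 8.90, 7.54 and 7.88 CPM in cyp (log2 fold change 2.699, SE 0.49, adjusted p = 6.6e-05). The cytochrome P450 gene CYP71B3 (AT3G26220) rose from 2.04 ± 0.279 to 13.2 ± 0.741 CPM (log2 fold change 2.69). The ubiquitin ligase gene PUB19 (AT1G60190) rose from 3.23 ± 0.391 to 16.6 ± 0.587 CPM (log2 fold change 2.36), and DRB3 (AT3G26932), a protein that binds double-stranded RNA, from 1.92 ± 0.292 to 9.46 ± 0.546 CPM (log2 fold change 2.302). AT3G24240, a receptor-like kinase, rose from 1.05 ± 0.213 to 6.24 ± 0.302 CPM. GolS2 (AT1G56600), which starts the synthesis of raffinose sugars, rose from 384.4 ± 20.2 to 668.0 ± 47.2 CPM (log2 fold change 0.80, adjusted p = 0.0041).

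The remaining lists are given by their counts. Over all tested loci 16.1% rose and 13.4% fell, and many of these lists lay near those shares. Of the mitochondrial genome loci 18 of 76 rose and 0 fell, and of ribosomal protein genes 8 of 43 rose and 0 fell, counts that became 36 and 30 rises with total-count scaling. Sulfate genes gave 3 rises and 1 fall of 22, aliphatic glucosinolate genes 1 and 2 of 15, tryptophan synthesis genes 2 and 2 of 11, auxin genes 2 and 2 of 14, and glutathione transferases 2 and 1 of 12. With total-count scaling the rises and falls of these 5 lists were 10 and 0, 6 and 1, 5 and 0, 4 and 1, and 6 and 1. Storage lipid synthesis genes gave 1 rise and 2 falls of 7, storage lipid breakdown genes 0 and 1 of 11, raffinose genes 1 and 0 of 5, germination genes 3 and 0 of 11, and nuclear photosynthesis genes 2 and 4 of 32. With total-count scaling these 5 lists gave 3 and 0, 6 and 0, 4 and 0, 6 and 0, and 9 and 2. Seed coat markers gave 0 calls of 8 with trimmed means and 1 fall with DESeq2 size factors. Endosperm markers gave 2 rises of 6, the mannanase genes MAN6 and MAN7 (log2 fold changes 1.54 and 0.93), pollen markers 1 rise of 7, and leaf markers 1 rise and 1 fall of 7. The call of MAN7 was lost in every fit that leaves out a library (adjusted p = 0.071 to 0.11). With total-count scaling seed coat markers gave 3 rises, endosperm markers 2, pollen markers 4, and leaf markers 2 rises and 1 fall.

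Whether the dry difference persisted was asked with the separate libraries of seeds kept for 6 h in water. In water 63.1% of tested loci differed between cyp and WT, 31.2% higher and 31.9% lower. Of the 5319 loci called in dry seeds, 3322 were called in the same direction in water (62.5% of dry calls, 29.1% of water calls), and 561 in the opposite direction. The size of the difference itself differed between water and dry seeds at 35.2% of loci by the interaction test, with 2227 loci (12.3%) higher and 4127 (22.8%) lower in water than in dry seeds. Of the dry calls 2272 (42.7%) were among them. Both tests use the same dry libraries, so that share cannot be set against the 35.2% of all loci.

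The chaperone list turned round. All 18 genes were lower in cyp in water (median -3.42), and for all 18 the difference was lower in water than in dry seeds. HSP23.6-MITO went from a log2 fold change of 2.43 in dry seeds to -2.98 in water (difference -5.40, adjusted p = 1.2e-12), and BAG6 from 1.83 to -3.79 (difference -5.62, adjusted p = 8.2e-15). All 13 storage protein and all 10 oil body protein genes were lower in water, with medians of -2.27 and -2.99, and the interaction was negative and passed for 9 and 10 of them. SESA3 did not differ between the states beyond its error (-2.66 and -3.02, interaction adjusted p = 0.45), while PAP85 was lower only by the water test (log2 fold change -2.26, interaction adjusted p = 3.8e-07).

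Single genes showed other courses. NIT4 (3.84 dry and 3.34 in water), MRD1 (-5.18 and -4.20), TGG1 (-2.25 and -2.40), AT2G43590 (-2.77 and -2.58), PIP3 (2.699 and 2.52) and RGL2 (1.36 and 1.74) were called in both states, and their interaction did not pass. NCED9 was higher in dry seeds alone by its calls, with a log2 fold change of 0.02 in water (interaction adjusted p = 6.4e-07), and so was PUB19 (0.20 in water, interaction adjusted p = 1.6e-05). UPM1 turned from 1.11 to -0.39. In the other direction GPT2, a glucose phosphate translocator, turned from -1.47 to 1.54, the laccase gene LAC8 from -1.63 to 2.41 and SHM1, a serine transhydroxymethyltransferase, from -1.10 to 1.41.

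**Figure D5:**
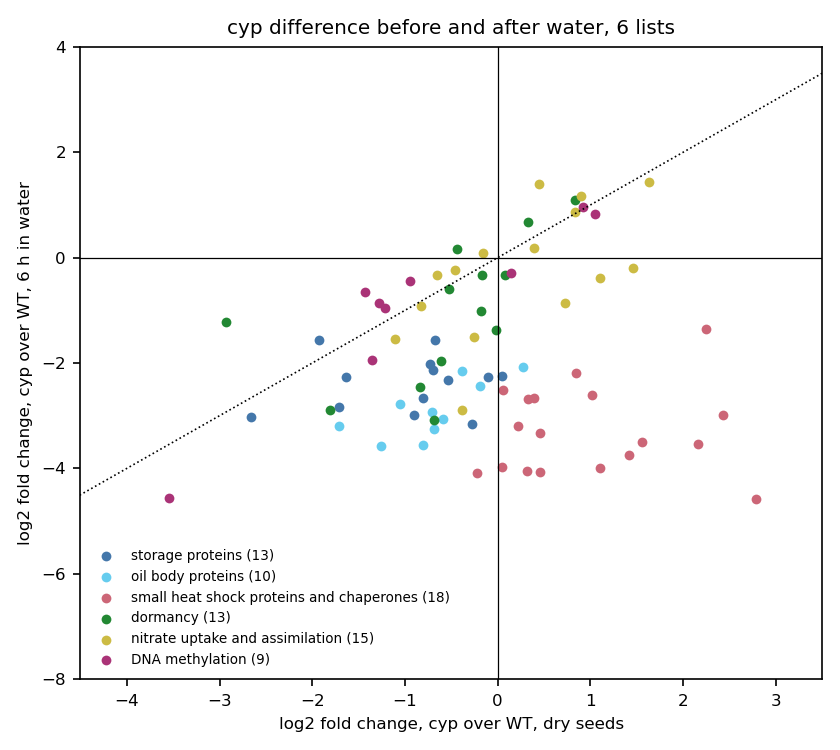
Log2 fold change of cyp over WT after 6 h in water (vertical) against that in dry seeds (horizontal) for the tested genes of 6 lists, where the dotted line marks equal values. All 18 chaperone genes (red) lie below 0 on the vertical axis although HSFA9 alone lies left of 0 on the horizontal one, and storage and oil body genes lie mostly below the dotted line.

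Dry seeds of the other mutants were compared with the same WT libraries, so agreement with them is no independent support. At an adjusted p under 0.05, 38% of tested loci were called in myb and 49% in qko. NIT4 did not pass in either (log2 fold changes -0.80 and -0.73), nor did AT2G43590 (-0.26 and 0.17) or CYSC1 (-0.55 and -0.62). The share of counts from storage and oil body genes lay below each WT library in these mutants too. It was 19.22 and 19.01% in the myb libraries and 18.25, 17.57 and 16.74% in the qko libraries. DOG1 was lower in all 3 mutants (cyp -1.81, myb -2.29, qko -1.82). MRD1 was at -5.18 in cyp, 0.56 in myb and -4.42 in qko. NIA1 rose in cyp and fell in the others (1.46, -1.86 and -4.06), as did GS2 (1.63, -3.10 and -4.47). Differences between the mutants were not tested.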

How the data were processed

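RNA of entire seeds was sequenced as paired reads on a DNBseq instrument, per the labels' protocols. The authors deposited estimated counts per transcript, made with Salmon per the submitters' processing notes. For the version, index, genome build and strand setting nothing is given in the sources used here. Of these values 58.4% are whole numbers (within 1e-09) and the others hold decimals. The values of all transcripts of a locus were added up and rounded to whole numbers. Names come from the RefSeq gene table of assembly TAIR10.1, which covers 27392 of the 27587 loci.

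A model of all 45 libraries with 1 coefficient for each of 16 groups was fitted with edgeR 4.0.16 in R 4.3.3 (quasi-likelihood F tests, TMM scaling). Loci were kept by group (minimum count 10, minimum total 15). Adjusted p are Benjamini-Hochberg values over 18066 loci, with a threshold of 0.05. SE is taken from the F statistic. The share of counts from storage and oil body genes was compared by an exact permutation test. DESeq2 1.42.0 served as an alternative. The test was tried on simulated data with 17954 loci, drawn with the library sizes and spread of these data. In them cyp was given the WT means, except at 200 changed loci. The test recovered 35 of 67 loci changed 1.5-fold, 57 of 67 changed 2-fold and 63 of 66 changed 4-fold, and called 6 unchanged loci. These data held no broad shift between the groups, so they do not show how the scaling acts on the real comparison.

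The comparison and the 27 gene lists (411 genes) were chosen with earlier results of these data known. The rule for named genes takes from each list the 3 called genes that changed most (or fewer), given 1 CPM or more on average, the 10 largest rises and falls with at least 5 CPM in the higher group, 3 counts in every library and no overlap, a few fixed genes (CYP79B2, CYP79B3, MYB28, MYB29, DOG1, TGG1 and NIT4) and, for the difference between water and dry seeds, 5 genes each way. The text draws on part of these genes. PAP85, OLEO3, CRU2, CRA1, ECP63, AT4G18650, AT4G18680, PER1, SPT, PP2CA, ABI1, GA3OX1, GA3OX2, HSP101, HSFA9, CYP71A13, RFNR2, NIA2, NIR1, NRT2.7, GDH2, AOS, JAZ10, LOX2, PR1, MYC2, MYC3, MET1, DME, AT5G26010, HEI10, POK1, PAKRP1, KINESIN-12B, MAN6, MAN7 and EPR1 were chosen after their values were seen or named as examples of a list. Related copies (SESA1 to SESA4, TGG1 and TGG2, the VIM genes) may share reads, which was not tested. TGG2 itself was at 0 CPM in WT and cyp.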

Additional observations from a re-analysis of the deposited data

Results flagged for a closer look

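The difference between cyp and WT was not the same in dry seeds and in water at 6354 loci, by the interaction test of edgeR (adjusted p under 0.05). The values below are the log2 difference in water minus that in dry seeds, for genes that passed this test and are named in the text or taken by the rule for it.

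Among chaperone genes the value was -7.37 for HSP21, -5.70 for AT1G59860, -5.62 for BAG6, -5.40 for HSP23.6-MITO, -4.02 for HSP101, -3.86 for the heat shock factor gene HSFA9 and -3.61 for AT5G51440. PUM21, which encodes a Pumilio RNA-binding protein, was at -5.37. GolS2 was at -3.76.

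Among seed store and protection genes the value was -1.13 for CRU3, -1.43 for CRA1, -1.29 for CRU2, -2.15 for PAP85, -1.49 for ATS1, -2.33 for OLEO4, -2.34 for OLEO3, -0.82 for M17, -2.55 for RAB18 and -1.98 for ECP63. In water all of these genes were lower in cyp, while ECP63 was higher in dry seeds and OLEO3 and PAP85 had not passed there.

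In the dormancy and hormone lists the value was -1.09 for DOG1, -1.62 for AT4G18660, -1.36 for AT4G18680 and -2.41 for PER1, while AT4G18690 went the other way at 1.72. It was -1.0 for ABI4, -1.13 for NCED9, -2.73 for CYP707A1, -3.44 for GA2OX6, -0.76 for MYC2, -0.78 for JAZ1 and -2.03 for JAZ10. ABI1 was at 1.11.

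Nitrate genes were at -1.66 (NIA1), -1.59 (NIR1), -1.50 (UPM1) and -1.34 (RFNR2). OASA1 was at -0.34, PBP1 at 1.40, the mannanase genes MAN6 and MAN7 at -2.09 and 1.2, and AT5G26010 at -1.72. Among DNA methylation genes VIM2 was at -1.02, VIM3 at 0.77 and DML1 at -0.59.

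Of the other large falls HEI10 was at -0.48, NRAMP6 at 0.87 and KINESIN-12B at -2.36. Of the rises CYP71B3 was at -1.23 and PUB19 at -2.15. The 5 genes that the rule took upwards, from those that met its limits on level and overlap, were LAC8 (4.04), PAP17 (3.96), ANNAT2 (3.3), GPT2 (3.01) and SHM1 (2.50). PAP17, an acid phosphatase gene, and ANNAT2, an annexin gene, had not passed in dry seeds (adjusted p = 0.097 and 0.082).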

How the results depend on the processing

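The count of 5319 dry calls became 9211 with total-count scaling (3465 of the main calls kept with their direction) and 8044 when the 6 libraries were fitted alone with 15331 loci tested (5069 kept). Under the other settings it lay between 4779 (no low-count filter) and 6447, and without each library in turn between 4191 and 4350. The count of 6354 loci that differed between water and dry seeds lay between 5940 and 8085, and between 5413 and 6461 without each library in turn. The storage and oil body share fell by 9.91 percentage points, with a range of -10.5 to -9.51 without each library and -8.73 for storage genes alone, and p was 0.10 throughout. Leaving out a library of 3 leaves 2 against 3, where the exact test cannot go below 0.10 either.

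Of 87 values of single genes, 75 kept direction and call under every alternative run and 82 did so under every alternative but total-count scaling. With that scaling PAP85 and HSFA9 reversed to 0.28 and 0.15, RAB18, AT4G18680, PER1, ABI1, CRA1 and CRU2 no longer passed, and OLEO3 passed. The 6 libraries alone made calls of OLEO3 and HSFA9, MYC3 and MAN7 lost theirs under 7 settings each, and PP2CA without cyp replicate 8. The cause was not tested.

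WT and cyp libraries share only the numbers 8 and 9, and residuals of same-numbered libraries correlated at -0.0252 and 0.0628, so the numbers were not taken as pairs. With a replicate block 5751 dry calls were made in all 45 libraries and 6447 in the 6 libraries alone, and for the difference between water and dry seeds 6801 and 7563.

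At 3 counts or fewer per WT library a loss of CYP79B2 or CYP79B3 could not have been detected. In the simulated data 52.2% of loci changed 1.5-fold were recovered.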
